A study of Mus musculus with 19 samples.

Results

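Integrins, cadherins and desmosomal genes were followed in sorted mouse mammary luminal cells (LCs). The gene symbols printed on the array were matched to the integrin α and β subunits, the numbered cadherins, the desmogleins, desmocollins and plakophilins, desmoplakin (Dsp), plakoglobin (Jup), focal adhesion kinase (Ptk2), Myadm, Cd44 and Epcam. The match gave 68 genes carried by 157 of the 56605 probes that were not controls. Of these, 47 genes with 81 probes were well above background on 4 or more of the 19 arrays, among 20803 genes that passed the same filter. They comprised 15 of 18 integrin α genes, all 8 integrin β genes, 11 of 23 cadherins, 9 of 15 desmosomal genes and all 4 of the other genes. The 21 genes that did not pass were Cdh4, Cdh6, Cdh7, Cdh9, Cdh10, Cdh17, Cdh18, Cdh19, Cdh20, Cdh22, Cdh23, Cdh24, Dsc1, Dsg1a, Dsg1b, Dsg1c, Dsg3, Dsg4, Itga4, Itgad and Itgae. Of the 47 genes, 36 were above background on all arrays and 11 on fewer, namely Cdh2, Cdh5, Cdh8, Cdh12, Cdh15, Itga1, Itga2b, Itga9, Itgal, Itgax and Itgb2.

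Integrins are heterodimers of an α and a β subunit that bind laminins, collagens, fibronectin and other matrix proteins outside the cell and connect them to the cytoskeleton. Cadherins hold neighbouring cells together by calcium-dependent contacts, and desmosomal cadherins do the same at plaques where plakophilins, plakoglobin and desmoplakin anchor keratin filaments. In the mammary gland the basal layer rests on the basement membrane through integrins, while luminal cells are joined to each other by E-cadherin and desmosomes.

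The cells came from ovariectomized C57Bl/6N female mice of 8 weeks. One genotype was wild-type. The other was C451A-ERα, a germline point mutation of the palmitoylation site that prevents the location of estrogen receptor α at the membrane and is carried by basal cells and stroma as well as by LCs. After ovariectomy, at 24 days of age per the labels (the study's methods give a slightly later age), and 10 days of rest, mice received for 21 days a pellet of 17β-estradiol (E2, 0.01 mg over 60 days) or of E2 with progesterone (E2+Pg, 0.01 mg and 1.5 mg over 60 days), so that every group received E2 and no group was without hormone. LCs were sorted as CD24+ CD29lo cells after removal of CD31+ and CD45+ cells. Each array held 1 mouse: 4 wild-type and 5 C451A-ERα mice under E2, and 5 of each genotype under E2+Pg. CD29 is the product of Itgb1, one of the genes followed here, so its level was constrained by the sort. These are bulk samples, in which fewer cells of a type and less RNA per cell cannot be told apart.

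All 7 pan-luminal and all 7 hormone-sensing luminal markers were above background on every array, as were all 10 basal and 6 of 8 leukocyte markers, so RNA of other compartments was measurable in the sorted cells. Levels of several of these lists are given beside the results. Arrays had 26478 to 31265 probes above background. Across the 20803 genes, mouse L18 of C451A-ERα under E2+Pg correlated least with its own group (r = 0.967), followed by L4 of C451A-ERα under E2 (0.974) and L21 of wild-type under E2+Pg (0.978). L4, L27 (C451A-ERα under E2) and L18 also had the lowest array weights (0.231, 0.271 and 0.294). Where leaving out 1 of these mice, or L72 of wild-type under E2, brought a member past the threshold, the value without it stands beside the result. Such a fit can move all genes at once: under E2, 0.0288% of genes were called between genotypes with all mice and 5.02% without L72. Leaving out other mice could raise adjusted p values. Without L67 of wild-type under E2, those of Myadm, Itgb6, Itgb3, Itga2 and Dsc2 between genotypes were 0.465 to 0.572.

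All values are log2 signal, a scale on which a difference of 1 is a doubling of signal, and levels are never compared between probes. A gene counted as called where limma, run on all 20803 genes, gave a Benjamini-Hochberg adjusted p below 0.05 together with more than a 1.5-fold change. The map of all members by mouse shows that L4, L27, L18 and L21 were low for many members at once: over the 47 genes their median deviations were -0.26, -0.35, -0.29 and -0.32, while wild-type L67 under E2 was at 0.31.

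**Figure D1:**
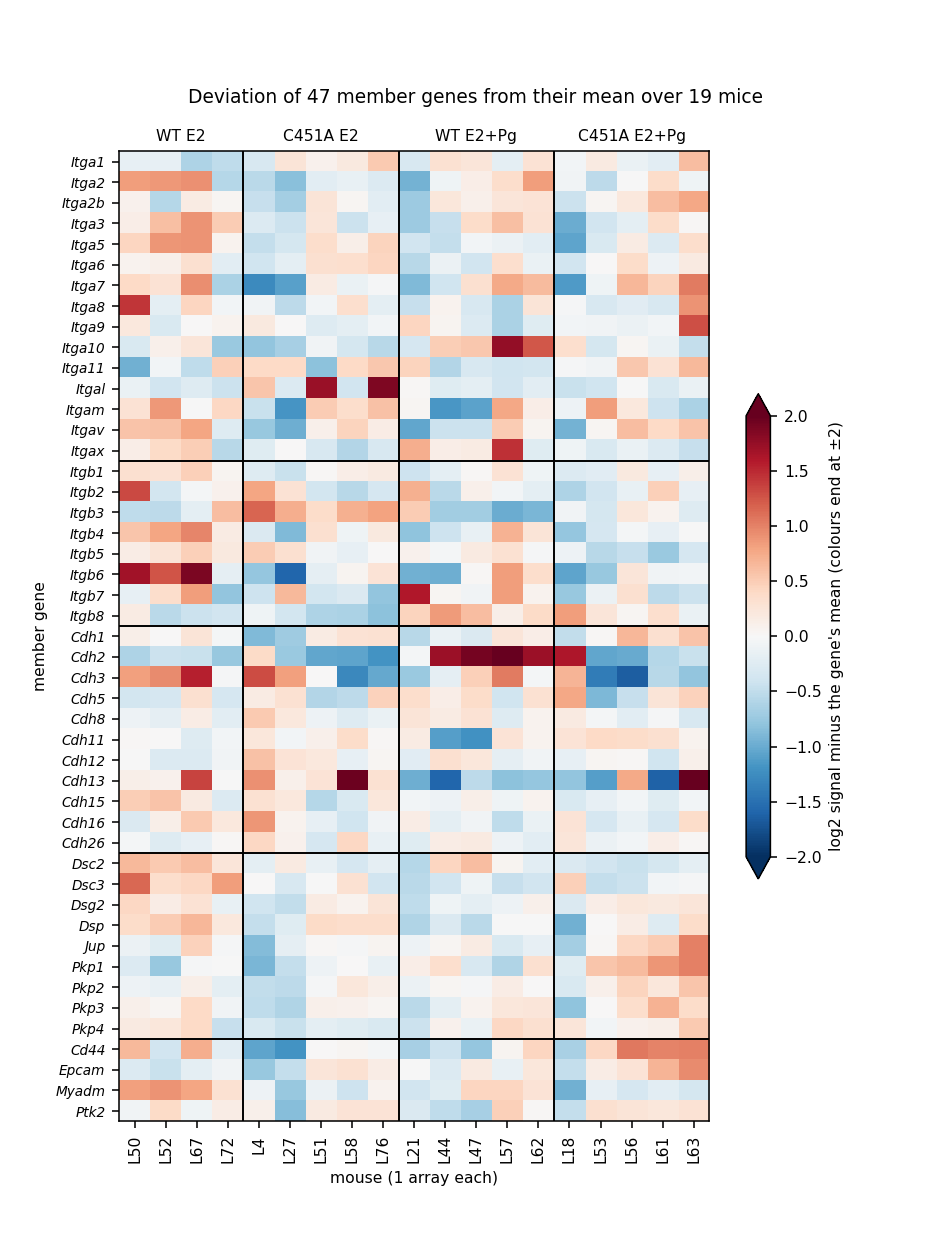
Log2 signal of 47 member genes (rows, by family) in 19 mice (columns, by group), as the deviation from each gene's mean, with colours ending at ±2. Cdh2 is high in 4 of 5 wild-type mice under E2+Pg and in L18, and under E2 Itgb6 is high in the wild-type mice other than L72 and Dsc3 in all 4.

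Under E2, the comparison of C451A-ERα with wild-type asks what loss of membrane ERα changed in the adhesion genes of LCs when estradiol was the only hormone. No member was called, against 6 of 20803 genes (0.0288%; 0.00961% higher and 0.0192% lower). Lower values prevailed: 35 of 47 members were lower in C451A-ERα and 12 higher, with a median difference of -0.25, whereas over all genes 9582 were lower and the median was 0.03. Without L4, L18 and L27 there were 30 lower and 17 higher, with a median of -0.16. At an unadjusted p under 0.05 there were 9 lower and 4 higher members, 27.7% of the members against 13.6% of all genes (7.03% higher and 6.54% lower). The lower members were Itgb6, Myadm, Itga2, Itga3, Itgb4, Dsc3, Dsc2, Itga5 and Itgb1. The higher members were Itgal, Itgb3, Itga1 and Cdh12. Of these, Itgal and Cdh12 were above background on only 5 arrays each and passed the filter through the group in which they were high. Both are counted in the 27.7%.

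Myadm, a membrane protein associated with lipid rafts, had the lowest adjusted p of the members. Its log2 signal was 11.03, 11.51, 11.55 and 11.64 in wild-type mice and 9.97, 10.32, 10.61, 10.64 and 10.80 in C451A-ERα mice. The groups did not overlap, which held for 3.51% of all genes. The difference was -0.96 (SE 0.22, limma adjusted p = 0.114), a 1.95-fold lower signal that was not called. Without L72, the lowest wild-type mouse, it was -1.10 with an adjusted p of 0.00929, while without L67 the adjusted p was 0.465.

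Itgb6, which pairs with αv as an epithelial receptor that activates latent TGFβ, gave the lowest difference. Wild-type mice had 11.01, 11.44 and 11.62, and L72 had 9.57. C451A-ERα mice had 8.16, 8.97, 9.58, 9.80 and 10.02, so that only L72 fell among them. The difference was -1.60 (SE 0.47, limma adjusted p = 0.145) with all mice and -2.05 (adjusted p = 0.0131) without L72. Without L67 the adjusted p was 0.491. The other Itgb6 probe that passed gave -0.76 (SE 0.40, limma adjusted p over all probes = 0.465).

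Of the subunits of laminin receptors, Itgb4 and Itga3 were lower at an unadjusted p under 0.05, while the brightest probe of Itga6 differed by 0.03. Itgb4, the partner of α6 in hemidesmosomes, had 13.16, 13.55, 13.79 and 13.98 in wild-type and 12.11, 12.71, 12.91, 13.20 and 13.32 in C451A-ERα mice. The groups overlapped at L72, and the difference was -0.77 (SE 0.29, limma adjusted p = 0.237). Its other probes gave -0.64 (SE 0.70) and -0.05 (SE 0.17). Itga3, a further laminin receptor subunit, differed by -0.75 and Itga2, which binds collagen, by -0.92, and the Itga2 difference was -1.29 (adjusted p = 0.0155) without L72. Itgb1, the common β subunit and sort marker, had 13.45, 13.68, 13.70 and 13.86 in wild-type and 12.94, 13.13, 13.41, 13.52 and 13.56 in C451A-ERα mice, a difference of -0.36 (SE 0.16, limma adjusted p = 0.332). Itga5, the fibronectin receptor subunit, had 6.78, 7.15, 7.59 and 7.61 against 6.25, 6.36, 6.83, 7.07 and 7.16, a difference of -0.55 (SE 0.26, limma adjusted p = 0.362).

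Desmocollins were the desmosomal members with an unadjusted p under 0.05. Dsc3, a desmosomal cadherin of stratified and basal epithelia, had 7.81, 7.87, 8.30 and 8.61 in wild-type and 7.08, 7.15, 7.46, 7.47 and 7.77 in C451A-ERα mice, without overlap. The difference was -0.76 (SE 0.20, limma adjusted p = 0.126). Dsc2 differed by -0.64 (adjusted p = 0.145), also without overlap, and by -0.73 (adjusted p = 0.0452) without L72. The other 7 desmosomal genes, Dsg2, Dsp, Jup and Pkp1 to Pkp4, were between -0.06 and -0.38, so that all 9 were lower, with a median of -0.29. Without L4, L18 and L27, 6 of 9 were lower and 3 (Jup, Pkp1 and Pkp2) higher, with a median of -0.04, while Dsc2 and Dsc3 stayed at -0.72 and -0.70. Other epithelial lists were lower as well. All 6 epidermis markers were lower (median -0.44), with mean deviations of -0.36 to 0.55 in wild-type and -0.83 to 0.20 in C451A-ERα mice, and 6 of 7 pan-luminal markers were lower (median -0.33), with 0.06 to 0.29 and -0.26 to 0.21. Their part in the desmosomal values was not tested.

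Of the members that were higher, Itgb3 was above background on all arrays and Itgal on 5. Itgb3, the vitronectin receptor and platelet integrin β subunit, had 8.35, 8.36, 8.68 and 9.48 in wild-type and 9.23, 9.57, 9.59, 9.66 and 10.04 in C451A-ERα mice, with only L72 reaching the C451A-ERα range. The difference was 0.90 (SE 0.28, limma adjusted p = 0.159) and became 1.16 (adjusted p = 0.0184) without L72. The adjusted p without L67 was 0.491. The other Itgb3 probe that passed gave 0.34 (SE 0.24, limma adjusted p over all probes = 0.610). Of the 2 platelet markers that were tested of 4, 1 differed by -2.93 and 1 by 0.23, and Ppbp was above background on only 8 arrays. Their mean deviations were -0.35 to 2.07 in wild-type and -0.85 to 0.56 in C451A-ERα mice, and their part in the Itgb3 values was not tested. Itgal, the αL subunit of leukocytes, had 5.08 to 5.38 in wild-type mice, 3 of 4 of them at background, and 5.14, 5.24, 6.07, 7.24 and 7.37 in C451A-ERα mice, 2 of 5 of them at background. Its values thus rest on L51 and L76, no fold is given, and limma, run on signals that were mostly at background, gave an adjusted p of 0.213. The other Itgal probe that passed, above background on 9 arrays, differed by 0.05 (SE 0.11). The leukocyte markers had mean deviations of -0.23 to 0.30 in wild-type and -0.24 to 0.09 in C451A-ERα mice. Itga1, a collagen receptor subunit, had 5.05, 5.16, 5.50 and 5.50 in wild-type against 5.35, 5.76, 5.87, 5.93 and 6.20, a difference of 0.52 (adjusted p = 0.249). Cdh12 was not well above background in any wild-type mouse and was in 3 of 5 C451A-ERα mice, at least 1.25-fold higher there (adjusted p = 0.349).

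Cdh1, E-cadherin, had 13.46 to 13.75 in wild-type mice and 12.61, 12.79, 13.66, 13.78 and 13.80 in C451A-ERα mice, of which the lowest were L4 and L27. Epcam, the epithelial adhesion molecule, differed by 0.14 (SE 0.25) and Cd44, a hyaluronan receptor, by -0.65 (SE 0.38), with L4 and L27 again lowest at 9.52 and 9.38. Ptk2, the kinase of focal adhesions, differed by -0.10 (SE 0.25) and Cdh2, N-cadherin, by -0.17 (SE 0.49).

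**Figure D2:**
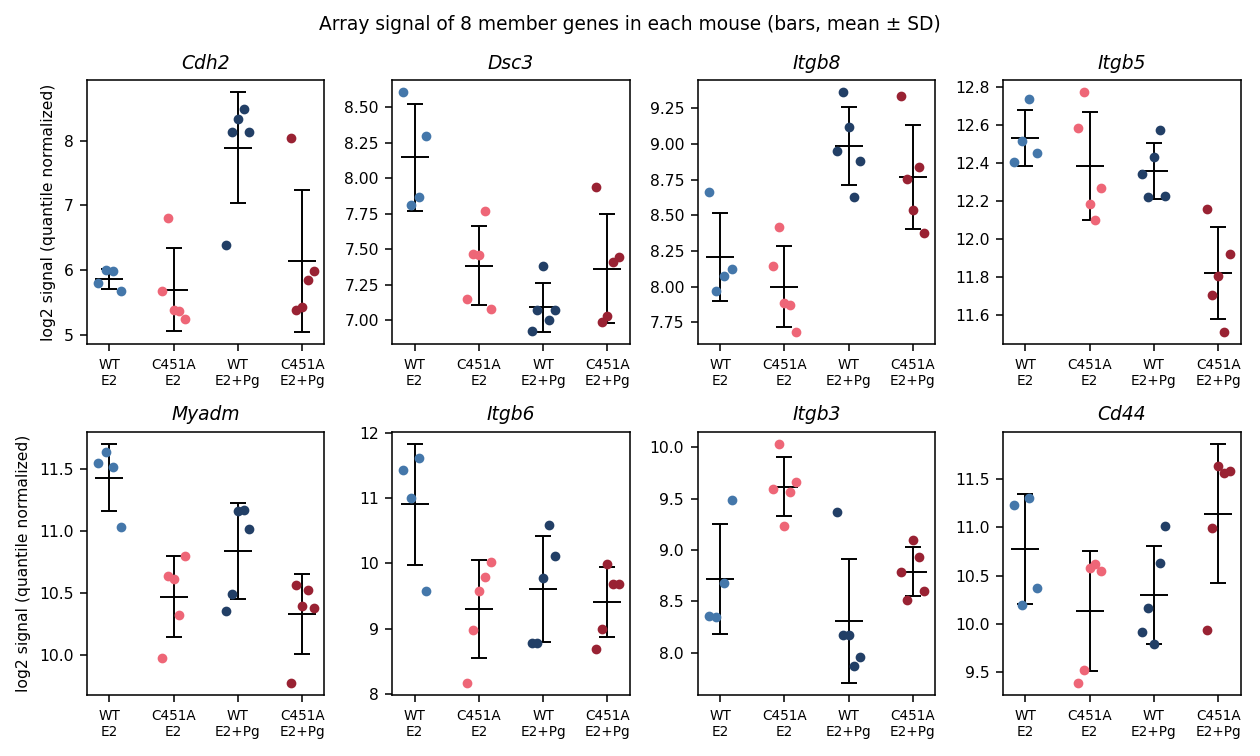
Log2 signal of 8 member genes in each mouse, with mean and SD for 4 wild-type and 5 C451A-ERα mice under E2 and 5 of each under E2+Pg. Cdh2 is at 8.13 or more in 4 of 5 wild-type mice under E2+Pg, and under E2 the genotypes do not overlap for Myadm and overlap only through L72 for Itgb6 and Itgb3.

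The genes that these receptors bind were examined from a list of 18 basement membrane and matrix ligands of integrins. None was called between genotypes under E2, with 12 lower and 6 higher (median -0.24), and the lowest by moderated t were the laminin β1 gene Lamb1 (-1.82, adjusted p = 0.123) and the laminin α3 gene Lama3 (-1.34, adjusted p = 0.123). Of 8 plakins and hemidesmosome proteins 7 were lower, and Perp, a desmosomal component, differed by -1.37 (adjusted p = 0.123). Basal and myoepithelial markers had mean deviations of 0.08 to 0.36 in wild-type and of -0.28 to 0.42 in C451A-ERα mice, and 7 of 10 were lower, with a median of -0.23. Their part in the lower integrin and desmosomal values was not tested.

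Under E2+Pg, the same genotype comparison asks whether membrane ERα changed these genes when progesterone was added. No member was called, against 1 of 20803 genes (0.00481%), and the sign balance was different from that under E2: 28 members were higher and 19 lower in C451A-ERα, with a median of 0.10. Over all genes 9684 were higher and 11118 lower, with a median of -0.03. At an unadjusted p under 0.05 there were 3 higher (Cd44, Cdh11 and Pkp1) and 7 lower members (Cdh2, Itga10, Itgb7, Itgax, Itgb5, Myadm and Dsc2), 21.3% of members against 18.3% of all genes (8.00% higher and 10.3% lower). Itgax was above background on only 7 arrays. Without L4, L18 and L27, left out together because of their low weights, 6 members and 14.5% of all genes were called. Among the desmosomal genes 8 of 9 were higher, with a median of 0.19 (0.36 without those 3 mice, also 8 of 9). Of the epidermis markers 5 of 6 were higher, with a median of 0.30 and mean deviations of -0.39 to 0.49 in wild-type and -0.32 to 0.76 in C451A-ERα mice, and their part in the desmosomal values was not tested.

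Cdh2 gave the lowest difference. Its log2 signal was 8.13, 8.13, 8.34 and 8.49 in 4 wild-type mice and 6.39 in L21. In C451A-ERα mice it was 5.38, 5.43, 5.85 and 5.98, and 8.05 in L18. The 2 genotypes therefore overlapped through 1 mouse each. The difference was -1.76 (SE 0.46, limma adjusted p = 0.119), and it was -2.23 (adjusted p = 0.0166) without L18 and -2.14 (adjusted p = 0.0248) without L21. Without L18 5.28% of all genes were called, and without L21 1.12%. Without L47 of wild-type the adjusted p of Cdh2 was 0.304. Basal and myoepithelial markers had mean deviations of -0.33 to 0.18 in wild-type and -0.46 to 0.87 in C451A-ERα mice, highest in L18. Their part in the Cdh2 values was not tested.

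Itgb5, a vitronectin-binding β subunit, had 12.22, 12.23, 12.35, 12.43 and 12.57 in wild-type and 11.51, 11.71, 11.81, 11.92 and 12.16 in C451A-ERα mice. It was the only member whose groups did not overlap, against 2.61% of all genes. The difference was -0.54 (SE 0.14, limma adjusted p = 0.119), a fold below the threshold, and without L18 it was -0.62 (adjusted p = 0.0348). Without L47 of wild-type the adjusted p of Itgb5 was 0.304. Itga10, a collagen receptor subunit, had 8.17, 9.01, 9.05, 9.75 and 10.26 in wild-type and 8.03, 8.15, 8.37, 8.54 and 8.84 in C451A-ERα mice. L21 was lowest in wild-type, and the difference was -0.86 (SE 0.30, limma adjusted p = 0.192) with L21 and -1.13 (adjusted p = 0.0458) without it, whereas another probe for this gene gave 0.78 (adjusted p over all probes = 0.253). Over the 19 fits that left out 1 mouse, the adjusted p of the brightest Itga10 probe was 0.0458 to 0.391.

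Pkp1, a plakophilin of desmosomes, had 12.16, 12.45, 12.89, 13.07 and 13.09 in wild-type and 12.52, 13.32, 13.39, 13.63 and 13.77 in C451A-ERα mice, with L18 lowest in its group. The difference was 0.60 (SE 0.25, limma adjusted p = 0.233), and without L18 it was 0.80 (adjusted p = 0.0473). Without L47 of wild-type the adjusted p of Pkp1 was 0.477. Cd44 had 9.80, 9.91, 10.16, 10.63 and 11.01 in wild-type and 9.94, 10.99, 11.57, 11.58 and 11.64 in C451A-ERα mice, with L18 again lowest. The difference was 0.84 (SE 0.36, limma adjusted p = 0.244), and without L18 it was 1.15 (adjusted p = 0.0478). Without L47 the adjusted p of Cd44 was 0.493. Cdh11, a mesenchymal cadherin, had 9.23 and 9.34 in L47 and L44, while the other mice of both genotypes were at 10.51 to 10.85, and it differed by 0.65 (adjusted p = 0.204). The fibroblast markers were at mean deviations of -0.59 to 0.55 in wild-type and of -0.45 to 0.63 in C451A-ERα mice, and their part was not tested.

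Further genes were followed under E2+Pg for their roles. Cdh1 had 12.94, 13.21, 13.37, 13.63 and 13.74 in wild-type and 13.01, 13.52, 13.82, 14.07 and 14.15 in C451A-ERα mice, a difference of 0.34 (SE 0.25). Epcam had 13.24, 13.37, 13.52, 13.70 and 13.75 against 13.05, 13.66, 13.79, 14.19 and 14.46, a difference of 0.32 (SE 0.24). In both genes L18 was the lowest C451A-ERα mouse and the groups overlapped. Jup, the catenin shared by desmosomes and adherens junctions, had 9.54, 9.68, 9.75, 9.88 and 10.02 against 9.18, 9.88, 10.27, 10.36 and 10.85, a difference of 0.33 (SE 0.25), with L18 lowest again. Dsp differed by 0.15 (SE 0.23), Ptk2 by 0.31 (SE 0.24) and Itga6 by 0.18 (SE 0.19), each with its brightest probe. Other probes gave -0.44 (SE 0.16, limma adjusted p over all probes = 0.192) for Ptk2 and 1.39 (SE 0.61, limma adjusted p over all probes = 0.231) for Itga6. Itgb4 differed by -0.18 (SE 0.27), and Itgb1 had 12.97 to 13.68 in wild-type and 13.12 to 13.59 in C451A-ERα mice. None of these 8 genes was called in any of the 5 comparisons.

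The other 24 members lay between -0.92 (Itga2) and 0.45 (Itga11) for the genotype difference under E2 and between -0.85 (Cdh3, P-cadherin) and 0.85 (Cdh13, T-cadherin) under E2+Pg. With progesterone they lay between -1.32 (Cdh13) and 0.43 (Itgb7) in wild-type mice and between -0.79 (Cdh13) and 0.66 (Itga7) in C451A-ERα mice. The lowest adjusted p of these members was 0.138.

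**Figure D3:**
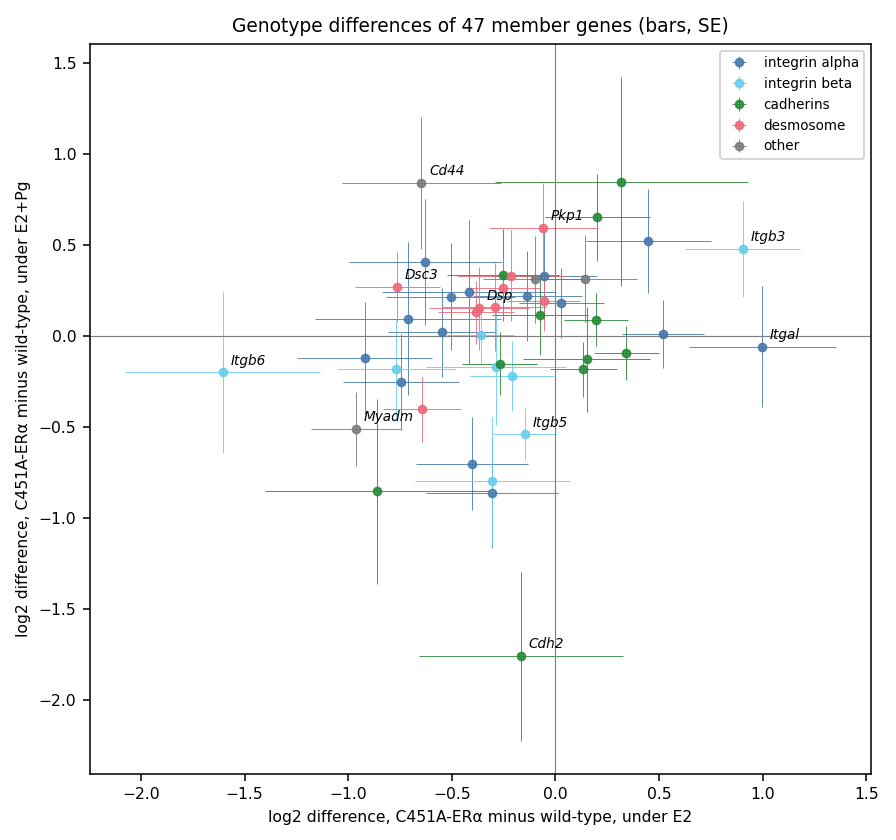
Log2 difference of C451A-ERα minus wild-type for 47 member genes under E2 (horizontal) and under E2+Pg (vertical), with SE bars. Most members lie left of 0 on the horizontal axis (35 of 47) and 28 lie above 0 on the vertical axis, and Cdh2 is lowest under E2+Pg at -1.76.

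E2+Pg was compared with E2 within wild-type mice to see what progesterone changed. Among the members 2 were called, Cdh2 higher and Dsc3 lower, against 1.31% of all genes (0.582% higher and 0.731% lower). In all, 31 of 47 were lower and 16 higher, with a median of -0.24 against 0.04 over all genes. At an unadjusted p under 0.05 there were 9 lower and 4 higher members, 27.7% against 16.2% of all genes (9.47% higher and 6.76% lower). The groups did not overlap for 5 members, Cdh2, Dsc3, Itga5, Dsp and Cdh13, and for 8.64% of all genes.

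Dsc3 fell from 7.81, 7.87, 8.30 and 8.61 under E2 to 6.93, 7.0025, 7.07, 7.08 and 7.38 under E2+Pg. Every mouse under E2+Pg was below every mouse under E2. The difference was -1.06 (SE 0.20, limma adjusted p = 0.0153), 2.08-fold, with a two-sided exact permutation p of 0.00794, the smallest that 4 and 5 mice allow, and on the 4 slides that carried both groups it lay between -1.53 and -0.87. With slide as a block it was -1.04 (adjusted p = 0.0321). Leaving out L50, the highest wild-type mouse under E2, gave -0.90 with an adjusted p of 0.0731. The other Dsc3 probes were above background on only 2 and 1 arrays and did not pass. Every Dsc3 value given, in all comparisons, therefore comes from the same probe, and no other probe could check it. Desmoplakin, the plakin that ties desmosomes to keratins, had 11.72, 11.87, 12.02 and 12.18 under E2 and 10.90, 10.97, 11.21, 11.50 and 11.50 under E2+Pg, a difference of -0.73 (SE 0.24, limma adjusted p = 0.138) that was not called.

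Cdh2 was at 5.67, 5.80, 5.98 and 6.00 under E2 and at 6.39, 8.13, 8.13, 8.34 and 8.49 under E2+Pg. All mice under E2+Pg were above those under E2, L21 by the least. The difference was 2.03 (SE 0.49, limma adjusted p = 0.0457), 4.09-fold, with a two-sided exact permutation p of 0.0159. Cdh2 was well above background on only 16 of 19 arrays, so the size of the fold is limited by low signal. With a normexp background correction the difference was 1.58 (limma adjusted p = 0.0449). With slide as a block the Cdh2 difference was 2.04 with an adjusted p of 0.0987, so the call was lost, and on the 4 slides it lay between 0.39 and 2.66. Leaving out 1 mouse at a time ended the call in 16 of 19 fits (adjusted p of 0.0502 to 0.133), with differences of 1.88 to 2.42 over the 19. Without L21 it was 2.42 with an adjusted p of 0.0228.

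Of the integrins, Itga5 fell short of the threshold at -0.82 (SE 0.26, limma adjusted p = 0.121) with 6.78, 7.15, 7.59 and 7.61 against 6.24, 6.33, 6.51, 6.59 and 6.67, without overlap. Itgb8, a partner of αv that binds latent TGFβ, had 7.97, 8.08, 8.13 and 8.66 against 8.63, 8.88, 8.95, 9.12 and 9.36, a difference of 0.78 (SE 0.20, limma adjusted p = 0.0652). Without L18, a C451A-ERα mouse in neither group, the Itgb8 difference stayed at 0.78 with an adjusted p of 0.0312. Without L52 of wild-type under E2 the adjusted p was 0.226. Itgb6 had 8.77, 8.78, 9.78, 10.11 and 10.59 under E2+Pg against the E2 values above, a difference of -1.30 (SE 0.47, limma adjusted p = 0.173), and of -1.75 (adjusted p = 0.0438) without L72. Without L67 the adjusted p of Itgb6 was 0.413. Itga10 differed by 0.92 (SE 0.32, limma adjusted p = 0.157) and by 1.19 (adjusted p = 0.0466) without L21, whereas its other probe gave 0.04 (SE 0.39). Leaving out 1 mouse at a time gave adjusted p values of 0.0466 to 0.318 for the brightest Itga10 probe. Itgb4 and Itgb1 differed by -0.71 and -0.36, both uncalled.

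Within C451A-ERα mice, the same comparison called 1 member, Itgb8, against 2.45% of all genes (1.02% higher and 1.43% lower). There were 26 higher and 21 lower members (median 0.04), against 10466 higher and 10336 lower over all genes. At an unadjusted p under 0.05 there were 4 higher and 3 lower members, 14.9% of members against 18.3% of all genes (8.54% higher and 9.78% lower). Itgal, which passed the filter through the E2 group in which it was high, is counted among the lower members. Itgb8 had 7.68, 7.87, 7.88, 8.14 and 8.41 under E2 and 8.37, 8.54, 8.75, 8.84 and 9.34 under E2+Pg. The ranges overlapped only through L4 (8.41) and L63 (8.37). The difference was 0.77 (SE 0.19, limma adjusted p = 0.0383), 1.70-fold, with a two-sided exact permutation p of 0.0159. In wild-type it was 0.78, so that the difference between genotypes was -0.01 (SE 0.28). On each of the 5 slides the C451A-ERα mice under E2+Pg were higher, by 0.12 to 1.47. With slide as a block the difference was 0.77 with an adjusted p of 0.0506, so the call was lost. It was also lost in 7 of the 19 fits that left out 1 mouse (adjusted p of 0.0509 to 0.101). The other 2 probes of Itgb8 that passed gave 0.65 and 0.60 in C451A-ERα (adjusted p over all probes 0.0979 and 0.100) and 0.21 and 0.62 in wild-type mice.

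Itgb8 is a chromosome 12 gene and its 3 probes lie on the minus strand at mm9 positions chr12:120396593-120396652 (the probe used), chr12:120401278-120401337 and chr12:120426719-120426778. Their first 30 of 60 bases are shown, in that order, so that the transcript parts behind the values can be found.

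Itgb8 probe used: tgtgagatgtttatttttctaacagagctt
Itgb8 second probe: atgtagatcatctgggaaagcactgattac
Itgb8 farthest probe: ttccatttatttagaggaatgaccctaaca

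Itgb5 had 12.10, 12.19, 12.27, 12.58 and 12.77 under E2 and 11.51, 11.71, 11.81, 11.92 and 12.16 under E2+Pg in C451A-ERα mice, which overlapped through L58 and L18. The difference was -0.56 (SE 0.14, limma adjusted p = 0.0418), and it was not called because the fold of 1.48 was below the threshold. Without L18 it was -0.65 (adjusted p = 0.0202), and the 19 fits that left out 1 mouse gave adjusted p values of up to 0.137. Itgb3 was lower without overlap, from 9.23 to 10.04 under E2 to 8.51 to 9.10 under E2+Pg, a difference of -0.83 (SE 0.26, limma adjusted p = 0.0902). Its adjusted p was 0.0318 when L21, a wild-type mouse in neither group, was left out of the fit. It was 0.344 without L4, L18 and L27, and the other Itgb3 probe gave -0.41 (SE 0.22). Groups did not overlap in 5.02% of all genes, and among the members in Itgb3 and Pkp4. Pkp1 differed by 0.89 (SE 0.25, limma adjusted p = 0.0577), and Cd44 by 1.01 (SE 0.36, limma adjusted p = 0.134). Without L18 their adjusted p values were 0.0150 and 0.0317. Without L4, L18 and L27 together they were 0.115 and 0.213, and that of Cd44 without L27 alone was 0.342. Itgal had an adjusted p of 0.127, with most mice at background.

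**Figure D4:**
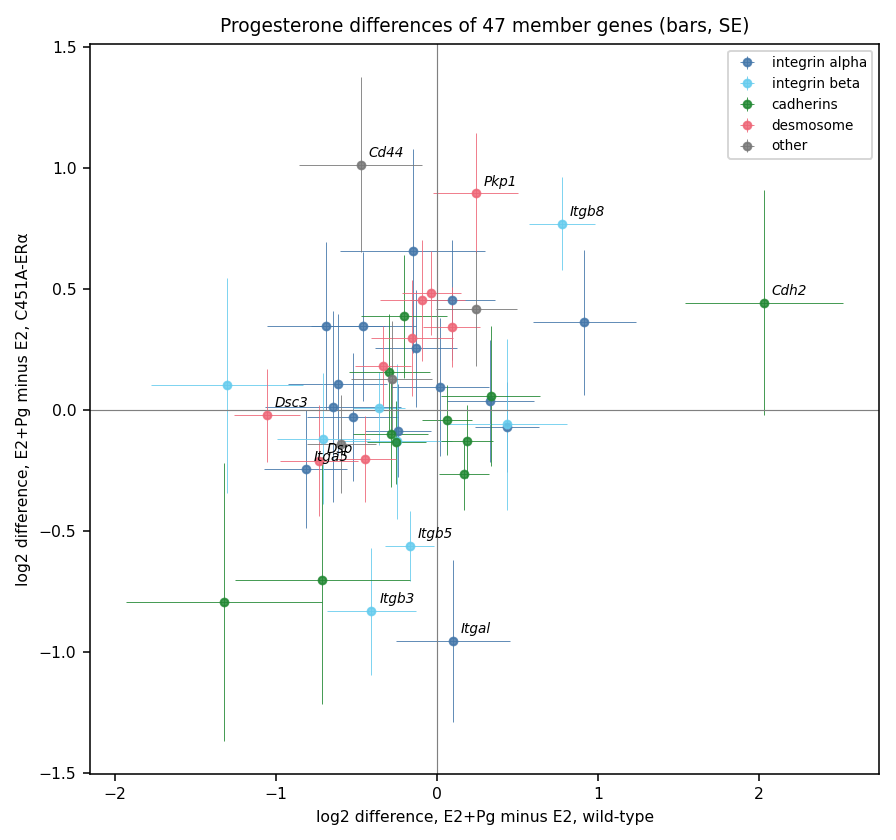
Log2 difference of E2+Pg minus E2 for 47 member genes in wild-type (horizontal) and C451A-ERα mice (vertical), with SE bars. Itgb8 is at 0.78 and 0.77 in the 2 genotypes, Cdh2 at 2.03 and 0.44, and Dsc3 at -1.06 and -0.02.

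The difference between the progesterone effects of the 2 genotypes was tested as an interaction. No gene of 20803 was called (0%), and among the members the lowest adjusted p was 0.472, while 4 members were higher and 2 lower at an unadjusted p under 0.05 (12.8% against 9.36% of all genes, 3.84% higher and 5.53% lower). Itgal, mostly at background, is counted among the lower members. Dsc3 had an interaction of 1.03 (SE 0.28, unadjusted p = 0.00166), since it fell with progesterone in wild-type mice and differed by -0.02 in C451A-ERα mice. Cd44 had 1.49 (SE 0.53, unadjusted p = 0.0113), Itgb6 1.41 (unadjusted p = 0.0433) and Cdh2 -1.59 (unadjusted p = 0.0304). All 9 desmosomal genes had positive interactions (0.24 to 1.03, median 0.52), as did 34 of 47 members and 9347 of 20803 genes. Without L4, L18 and L27 the 9 lay between 0.13 and 0.83. Of the epidermis markers 5 of 6 were positive (median 0.73), and their part in the desmosomal values was not tested. Each of the 4 groups enters 2 of the comparisons between groups and also the interaction, so all these results share mice.

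The 2 promoters shown are of Itgb8 and Itgb5, which differed in opposite directions with progesterone in C451A-ERα mice. They are the 250 bases before the RefSeq start site in build GRCm38.p6, chr12:119238277-119238526 on the minus strand for Itgb8 and chr16:33829415-33829664 on the plus strand for Itgb5, printed 5′ to 3′ along the gene. Capitals mark matches on both strands to AGAACA or TGTTCT (a progesterone receptor half-site), GGTCA or TGACC (an estrogen receptor half-site), CACCTG or CAGGTG (an E-box bound by Snail proteins) and TGANTCA (an AP-1 site), which may overlap.

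Itgb8: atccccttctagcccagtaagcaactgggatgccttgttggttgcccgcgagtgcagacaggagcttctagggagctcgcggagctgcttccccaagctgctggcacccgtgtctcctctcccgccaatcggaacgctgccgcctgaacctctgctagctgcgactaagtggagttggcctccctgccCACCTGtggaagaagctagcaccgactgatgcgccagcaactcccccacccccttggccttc
Itgb5: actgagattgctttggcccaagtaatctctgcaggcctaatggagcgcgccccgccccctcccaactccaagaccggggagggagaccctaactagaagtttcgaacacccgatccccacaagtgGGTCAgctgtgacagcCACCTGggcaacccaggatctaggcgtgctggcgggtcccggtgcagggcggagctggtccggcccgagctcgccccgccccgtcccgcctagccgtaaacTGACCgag

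The Itgb8 window held 1 match, an E-box, and the Itgb5 window held 3, an E-box and 2 estrogen receptor half-sites. Over the first start site of 27025 genes, 16.2% of windows held a progesterone receptor half-site, 34.9% an estrogen receptor half-site, 17.1% the E-box and 6.87% the AP-1 site. Of 27 members with an entry, 4, 6, 6 and 1 did.

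Probes of 1 gene did not always give the same difference between genotypes under E2. Itga6, the α6 subunit that pairs with β4 at the basement membrane, was measured by 5 probes that passed, and its brightest differed by 0.03 (SE 0.20), with 14.13, 14.41, 14.43 and 14.65 in wild-type and 13.93, 14.14, 14.65, 14.67 and 14.76 in C451A-ERα mice. A probe upstream of it gave -0.63 (SE 0.19, limma adjusted p over all probes = 0.174), and this probe also differed by -0.45 under E2+Pg. For Ptk2, the brightest of 3 differed by -0.10 (SE 0.25), and one at lower chromosome coordinates by -0.60 (SE 0.17, limma adjusted p over all probes = 0.157). None of these changed a call. Genotype differences of Itgb4 were -0.77 with the brightest probe, and -0.64 and -0.05 with the others.

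The 4 probes lie at mm9 chr2:71694756-71694815 and chr2:71690633-71690692 for Itga6 (plus strand) and at chr15:73151206-73151265 and chr15:73046410-73046469 for Ptk2 (minus strand), and in each pair the brightest is given first. Their first 30 bases are shown because the values of the pairs differ.

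Itga6 brightest probe: gagaatgagaacctgggaggtcttgttgtt
Itga6 upstream probe: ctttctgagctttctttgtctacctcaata
Ptk2 brightest probe: gatcctattgggagatgaggggtaatgccc
Ptk2 other probe: ccacctaagcaacctgtccagcatcagcag

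**Figure D5:**
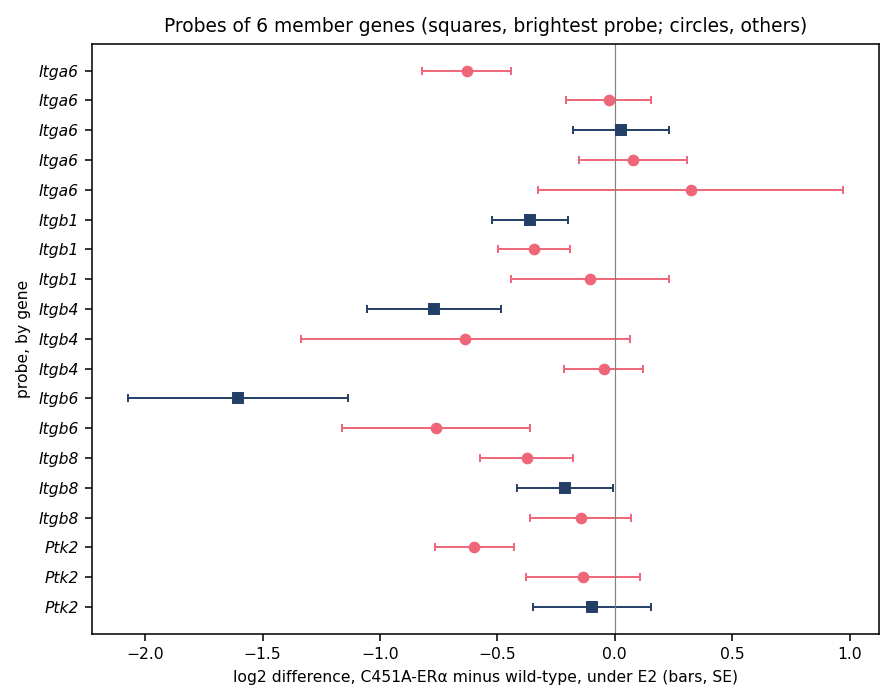
Log2 difference of C451A-ERα minus wild-type under E2 for every probe that passed of 6 member genes, with SE bars. Squares are the brightest probe and circles the others. One Itga6 probe lies at -0.63 and one Ptk2 probe at -0.60, while their brightest probes lie at 0.03 and -0.10.

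Genes of proteins that carry the integrin signal inside the cell and of the partners of Cd44 and Epcam were also examined. Of 23 talin, kindlin and other focal adhesion genes 1 (4.35%) was called with progesterone in each genotype, against 1.31% of all genes in wild-type and 2.45% in C451A-ERα mice: Tns3, a tensin that links integrins to actin, rose by 1.17 (SE 0.21, limma adjusted p = 0.0129) in wild-type and by 0.91 (SE 0.20, adjusted p = 0.0192) in C451A-ERα mice. In C451A-ERα mice 19 of the 23 were higher with progesterone (median 0.28), and 8 higher and 1 lower had an unadjusted p under 0.05, 39.1% against 18.3% of all genes. The mean deviations of these genes under E2 were -0.36 in L27, -0.32 in L4, and -0.02, 0.01 and 0.06 in the other mice. Under E2+Pg they were -0.13 to 0.42. The part of L4 and L27, the arrays of lowest weight, in this difference was not tested. Of 11 partners of Cd44 and Epcam 1 was called (9.09% against 2.45%). Has2, which makes the hyaluronan that Cd44 binds, fell by 1.81 (SE 0.41, limma adjusted p = 0.0245) in C451A-ERα mice and differed by -1.55 (adjusted p = 0.0836) in wild-type mice. None of the 12 catenins and nectins or of the 8 plakins and hemidesmosome proteins was called in any comparison. In the same comparisons all 7 hormone-sensing luminal markers were lower with progesterone, with medians of -0.74 in wild-type and -1.16 in C451A-ERα mice, and 4 of the 7 were called in the latter. The mean deviations of these markers were 0.12 to 0.75 under E2 and -0.79 to -0.35 under E2+Pg in wild-type, and 0.48 to 0.90 and -1.17 to 0.02 in C451A-ERα mice. Their part in the progesterone differences of Cdh2, Dsc3 and Itgb8 was not tested.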

How the data were processed

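RNA of sorted LCs was hybridised to 1-colour Agilent mouse arrays, 1 mouse per array, on 5 slides, and the deposited scanner files hold, per the file headers, the median intensity of each spot (mm9 probe positions; Feature Extraction 10.10.1.1). The authors' value table holds filtered log2 values of the same arrays, quantile normalized and corrected for washing bath and labelling series, which the labels do not give, and served as an alternative. From the median intensity, outlier spots were left out (1370; 0 saturated), spots of a probe averaged, values taken to log2 and quantile normalized, and probes kept that at least 4 arrays measured well above background. Each gene was represented by its brightest probe. limma 3.58.1 in R 4.3.3 fitted the 4 groups together (15 residual and 3.00 prior degrees of freedom), with Benjamini-Hochberg adjustment over 20803 genes. The number of arrays limits the precision. The code was tested on simulated data. The members and the lists of related genes and markers were chosen with earlier results of these data known. Text names every called member, the 3 highest and 3 lowest by moderated t in each comparison, and 10 members fixed by role. Nothing in the labels tells whether mice of different groups with the same replicate number are related. RefSeq tables (GRCm38.p6) renamed 110 of the 157 member probes by accession and the other 47 kept the name on the array. Alternatives changed the signal, background, scaling, filter, probe rule, slide, weights and mice.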

Additional observations from a re-analysis of the deposited data

Results flagged for a closer look

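Single mice stood far from the rest of their group in 8 of 92 combinations of 23 named genes and 4 groups, with the gap to the nearest mouse as a share of the group's range above Dixon's critical value. Chance gives about 1 in 20, and the mice recur, with L18 in 3 of the 8, L4 and L21 in 2 each and L27 in 1. For Cdh2 the ratios were 0.717 in C451A-ERα under E2 (L4 at 6.81), 0.832 in wild-type under E2+Pg (L21 at 6.39) and 0.776 in C451A-ERα under E2+Pg (L18 at 8.05). Itgb3 gave 0.798 (L21 at 9.37, wild-type under E2+Pg), Jup 0.741 (L4 at 8.99, C451A-ERα under E2) and Myadm 0.763 (L18 at 9.77, C451A-ERα under E2+Pg). Ptk2 gave 0.839 (L27 at 8.24, C451A-ERα under E2) and 0.876 (L18 at 8.62, C451A-ERα under E2+Pg).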

How the results depend on the processing

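Numbers of called members depended on the mice and weights. Under E2, 0 members were called between genotypes, 9 with array weights (11.2% of all genes), 1 in the deposited value table (0.667%), and 0 to 5 when 1 mouse was left out, the 5 without L72 (5.02%). Under E2+Pg, 0 became 3 with array weights (2105 of 20803 genes), 6 without L4, L18 and L27 together (14.5%, an alternative chosen after seeing the data) and 0 to 4 with 1 mouse left out, the 4 without L18 (5.28%). With progesterone in wild-type mice, 2 (1.31% of all genes) became 1 with the 75th percentile (0.933%), processed signal (1.05%), no filter (0.485%), signal above background on all arrays (1.55%) or slide as a block (0.356%). The number was 10 with array weights (7.73%), 3 in the deposited value table (1.96%) and 5 without those 3 mice (3.83%). With 1 mouse left out it was 0 to 3, the 0 without L50 (0.38%). In C451A-ERα mice, 1 (2.45%) became 0 with the 75th percentile (2.05%), processed signal (1.97%), no filter (1.04%), slide block (1.8%), only the compared groups (0.663%) or without those 3 mice (0.543%). The number was 2 with signal above background on all arrays (3.7%) or the deposited table (3.51%) and 3 with array weights (3.48%). With 1 mouse left out it was 0 to 3, the 3 without L58 (3.56%) or L18 (4.66%). The interaction was at 0 in every fit run. Itgal under E2 turned to -0.0692 (adjusted p = 0.923) with the processed signal. Why these values moved was not tested. No paired analysis was possible because the labels do not say whether mice with the same replicate number are related. Slide was used as the block instead. The 11 members below background on some arrays are limited by their signal.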
